A study of Mus musculus with 29 samples.

Results

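The genes described here are 48 genes of the cell cycle and of DNA replication, taken as a fixed list and read in 3 groups: 7 genes of the step from G1 into S phase, 17 genes of DNA replication and 24 genes of G2 and mitosis. Of these, 45 had a row of their own among the 22180 genes measured: 6 G1/S, 16 replication and 23 G2/M genes. Ccne2, Rfc4 and Ccnb1 were not analysed here. A further 4 genes, Gins1, Cdc25c, Bub1 and Birc5, lay below the filter on low values and were not tested in the main comparisons, so 41 were tested among 14699 genes.

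Whole livers of male C57BL/6N mice, marked wt in every sample title, 8 to 10 weeks old and on a standard diet, were measured on 29 Affymetrix arrays. The mice had the extrahepatic common bile duct ligated (BDL) or had a sham operation that left the duct open, and the design compares both operations by day after surgery. Sham livers were taken at day 1 (3 arrays), day 3 (2 arrays) and day 7 (4 arrays), and ligated livers at days 1, 3, 7 and 21 (5 arrays each). The day 21 livers were set against the day 7 shams, the latest analysed here, so time and ligation cannot be told apart there.

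In the adult liver nearly all hepatocytes and duct cells rest outside the cell cycle and can re-enter it after injury. D-type cyclins with CDK4 and CDK6 inactivate the retinoblastoma protein, which frees E2F factors to switch on the genes of S phase. There the MCM helicase is loaded at origins, opens the DNA and is followed by polymerases, the PCNA clamp and the enzymes that make nucleotides. G2/M genes are switched on later by B-MYB and FOXM1 and are held silent in resting cells by the DREAM complex, which binds the cell cycle genes homology region (CHR) of their promoters, often beside CCAAT boxes bound by NF-Y.

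The promoters below are shown because replication and G2/M genes differ in how often they hold short elements bound by the factors named above. Each is the 180 bases before the start site, from RefSeq's mouse assembly GRCm38.p6, written 5′ to 3′ on the strand of the gene. Capitals mark exact matches on either strand to an E2F motif (TTTGGCGC, TTTCCCGC, TTTCGCGC or TTTGCCGC), the CHR (TTTGAA) or the CCAAT box (CCAAT); in Mcm5 and Mcm6 E2F matches on both strands overlap and form 1 run of capitals. The genes were picked after their motifs and values had been seen.
Mcm5, chr8:75109329-75109508, plus strand: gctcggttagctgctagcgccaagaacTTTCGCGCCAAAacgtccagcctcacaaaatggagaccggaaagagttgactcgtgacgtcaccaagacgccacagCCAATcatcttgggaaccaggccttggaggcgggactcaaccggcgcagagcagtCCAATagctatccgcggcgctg
Mcm6, chr1:128359706-128359885, minus strand: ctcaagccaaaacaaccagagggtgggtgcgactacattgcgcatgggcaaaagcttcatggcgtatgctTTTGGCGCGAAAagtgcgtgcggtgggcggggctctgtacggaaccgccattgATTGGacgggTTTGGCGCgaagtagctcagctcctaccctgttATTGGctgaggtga
Cdk1, chr10:69352913-69353092, minus strand: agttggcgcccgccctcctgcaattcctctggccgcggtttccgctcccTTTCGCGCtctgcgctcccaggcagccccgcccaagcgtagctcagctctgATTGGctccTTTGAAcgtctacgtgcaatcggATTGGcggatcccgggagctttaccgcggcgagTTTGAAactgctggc
Top2a, chr11:99024190-99024369, minus strand: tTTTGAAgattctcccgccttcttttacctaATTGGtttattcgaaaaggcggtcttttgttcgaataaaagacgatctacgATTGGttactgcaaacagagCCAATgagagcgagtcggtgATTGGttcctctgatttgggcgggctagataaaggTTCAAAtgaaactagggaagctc
Mki67, chr7:135716380-135716559, minus strand: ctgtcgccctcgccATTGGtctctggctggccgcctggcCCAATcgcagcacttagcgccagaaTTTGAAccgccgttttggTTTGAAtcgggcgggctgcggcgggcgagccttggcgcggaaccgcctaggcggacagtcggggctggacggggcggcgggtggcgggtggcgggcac
Prc1, chr7:80294296-80294475, plus strand: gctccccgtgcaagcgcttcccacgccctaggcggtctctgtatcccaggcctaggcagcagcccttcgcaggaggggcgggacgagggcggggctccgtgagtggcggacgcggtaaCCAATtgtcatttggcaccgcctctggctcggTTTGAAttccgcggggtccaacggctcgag
E2f8, chr7:48881597-48881776, minus strand: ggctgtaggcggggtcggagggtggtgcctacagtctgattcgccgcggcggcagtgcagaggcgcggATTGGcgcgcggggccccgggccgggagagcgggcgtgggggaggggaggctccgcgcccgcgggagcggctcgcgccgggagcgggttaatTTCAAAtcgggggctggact
Mcm10, chr2:5012792-5012971, minus strand: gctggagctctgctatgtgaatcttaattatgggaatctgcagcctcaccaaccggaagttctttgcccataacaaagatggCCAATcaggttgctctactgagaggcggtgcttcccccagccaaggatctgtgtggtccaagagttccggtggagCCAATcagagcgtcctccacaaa

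Mcm5 and Mcm6, 2 subunits of the replicative helicase, hold E2F matches and CCAAT boxes and no CHR in these 180 bases. Top2a, Mki67 and Prc1 hold CHR and CCAAT matches and no E2F match, and Cdk1 holds all 3 kinds. E2f8 and Mcm10, which were called lower after ligation at days 1 and 21, are shown for comparison and hold no E2F match in this window. E2f8 holds a CHR and a CCAAT match there, and Mcm10 holds CCAAT matches. A link between these matches and the direction of change was not tested. A promoter was given for 35 of the 45 measured genes, 4 of them with more than 1 start site, and each start site counts as a promoter. The windows of Ect2 overlap and hold the same CHR and CCAAT matches, as do those of Prc1. The 19 G2/M promoters thus come from 17 genes. Over windows of 250 bases before to 50 after the start, an E2F match was present in 8 of 16 promoters of replication genes (50.0%) and in 1 of 19 of G2/M genes (5.3%), against 3.5% of the 14415 promoters of genes tested on the arrays. The CHR letters were present in 15 of 19 G2/M promoters (78.9%) and 1 of 16 replication promoters (6.2%), against 12.2% of those of tested genes. CCAAT was present in 17 of 19 G2/M (89.5%) and 13 of 16 replication promoters (81.2%), against 36.8%. Of the 4 G1/S promoters, 1 held an E2F match, 1 a CHR match and 2 a CCAAT match. These shares describe letters only and show no binding.

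**Figure D1:**
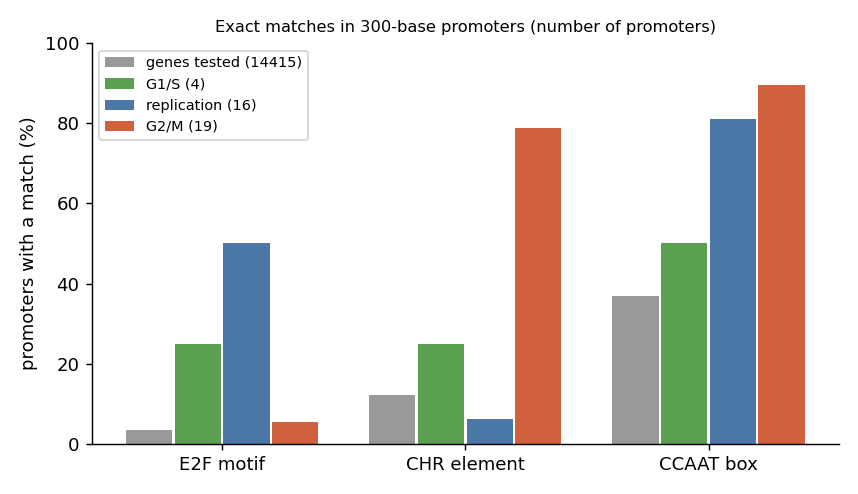
Percent of promoters (y axis) with an exact match to each motif (x axis), for genes tested on the arrays and for the 3 groups of cell cycle genes; the number of promoters stands in the legend. E2F matches are most frequent in replication promoters (50.0%) and CHR matches in G2/M promoters (78.9%).

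Values are on the log2 scale of the deposited array values, so a difference of 1 is a 2-fold change, and a gene is called changed where its adjusted p in limma (Benjamini-Hochberg over 14699 genes) was under 0.05. Precision is limited by the number of arrays: over the 41 tested genes the SE of the log2 fold change had a median of 0.21 at day 1, 0.24 at day 3, 0.20 at day 7 and 0.20 at day 21. Groups without overlap were common. Of all 14699 genes, every ligated array lay above all its shams for 1132, 2223, 2088 and 2504 at days 1, 3, 7 and 21. Every ligated array lay below them for 813, 1661, 867 and 1165. Hepatocyte markers (Alb, Apoa1, Ttr, Cps1, Hnf4a, Cyp2e1 and Tat) averaged 12.70 to 13.08 in every array. In whole liver, fewer cells of a type and less RNA per cell cannot be told apart.

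Some arrays stood apart. At day 1, 4 arrays (sham replicates 1 and 3, BDL replicates 2 and 3) had a narrower spread of log2 values, with SDs of 1.55 to 1.58 against 1.64 to 1.70 in the other arrays. At day 7, sham replicate 1 had stellate cell and fibroblast markers at 8.28, within the 8.09 to 8.54 of the ligated livers, while the highest of the other sham arrays of that day was 6.89. The day 3 comparison rests on 2 sham arrays, which lay far apart for some genes (5.51 and 7.85 for E2f8). Results that turn on these arrays are given with and without them. Leaving out the 4 day 1 arrays leaves sham replicate 2 as the only sham of day 1, assumed to vary like the other groups.

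The mean over the 16 measured replication genes was 5.61 to 5.88 in ligated livers at day 1, 6.11 to 7.19 at day 3, 6.33 to 6.94 at day 7 and 6.04 to 6.35 at day 21, while sham livers spanned 5.84 to 5.99 at day 1, 5.87 to 5.88 at day 3 and 6.02 to 6.21 at day 7. The mean over the 23 measured G2/M genes was 4.61 to 4.79 in ligated livers at day 1, 5.08 to 5.92 at day 3, 5.50 to 6.17 at day 7 and 4.86 to 5.35 at day 21, against sham ranges of 4.81 to 5.07, 4.75 to 4.78 and 4.81 to 5.16. Both group means thus lay above every sham array of the same day at days 3 and 7. The G2/M mean lay below every sham array at day 1, but narrowly. The highest ligated array there averaged 4.79, and sham replicate 2, which did not stand apart, 4.81. Sham replicates 1 and 3, which stood apart, averaged 5.07 and 4.85. The 6 G1/S genes averaged 6.12 to 7.11 over the ligated livers and 6.17 to 6.91 over the shams, and their ranges overlapped at every day on which both were measured.

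**Figure D2:**
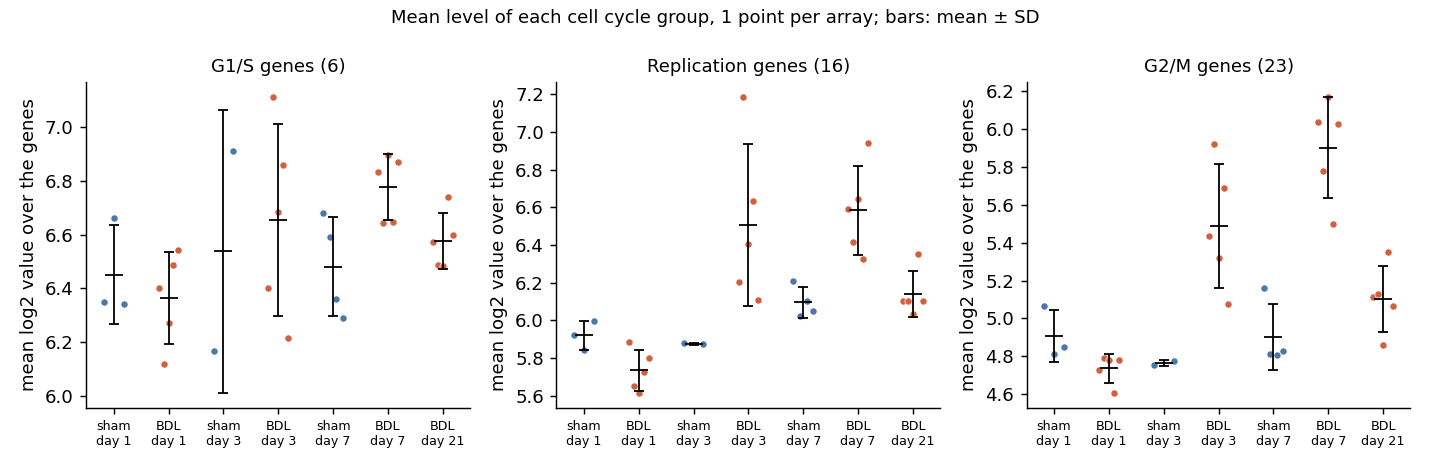
Mean log2 value (y axis) over the measured genes of each group, 1 point per array, by operation and day (x axis); bars give mean ± SD. Replication means of ligated livers reach 7.19 at day 3, and G2/M means reach 6.17 at day 7 and fall back to 4.86 to 5.35 at day 21.

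At day 1 few cell cycle genes had changed. Of the 41 tested, 1 was higher and 2 were lower in ligated than in sham livers, and 5 had an unadjusted p under 0.05, where 8.52% of all tested genes were called higher and 4.80% lower. Their median log2 fold change was -0.13, against 0.02 over all genes tested. Ccnd1 rose, and E2f8 and Mcm10 fell. None of the 20 tested G2/M genes was called by limma, 1 of them at an unadjusted p under 0.05, and 16 of the 20 had a negative log2 fold change.

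At day 3, genes of all 3 groups were higher in ligated livers, 8 of 15 replication and 11 of 20 G2/M genes among them. Over the 3 groups, 21 of 41 genes rose and 1 fell, where 6.47% of all tested genes rose and 3.69% fell, and the median log2 fold change was 0.67 against 0.02. Of the 6 G1/S genes 2 rose, and the gene that fell was Mcm10 of the replication group. Top2a, Bub1b, Kif11, Cenpe, Nusap1 and Foxm1 passed the filter only through ligated livers of days 3 or 7, where they are high, which favours a call in any comparison with those days. With a filter on the mean over all arrays, chosen after the data were seen, 7 of 14 G2/M genes rose at day 3, and without a filter 11 of 23. Each sham array mattered here: without sham replicate 1 the count of calls fell from 22 to 8 (5 higher, 3 lower), and without sham replicate 2 also to 8 (all higher), in both cases with 1 lone sham array assumed to vary like the other groups. Mcm3 and Tpx2 were called higher both times. Of the genes described array by array, Ccne1, Mcm6, Top2a, Prc1 and Foxm1 lost the call without either sham array, Ccnd1, Mcm5 and Mki67 without replicate 1, and Mcm10 and Pcna without replicate 2. With only the 7 arrays of the 2 groups in the fit, 9 genes were called, and with the shams of days 3 and 7 pooled 30 rose and 1 fell.

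At day 7 the G2/M genes had their highest mean. All 20 that were tested rose, with log2 fold changes from 0.51 to 1.66 and a median of 1.00, beside 7 higher and 1 lower of 15 replication genes and 1 higher of 6 G1/S genes; 14.2% of all tested genes rose and 4.97% fell. A call was favoured for the 6 genes that passed the filter only through ligated livers of days 3 or 7. Without a filter 22 of the 23 measured G2/M genes were called higher and Cdc25c was not. With the filter on the mean 14 of 14 G2/M genes rose. Leaving out sham replicate 1, the array with high fibroblast markers, gave 30 higher and 1 lower of 41.

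At day 21 few of these genes were still called against the day 7 shams. Ccnd1, Mcm2 and Mcm6 were higher and E2f8 and Mcm10 lower, where 17.3% of all tested genes were higher and 7.90% lower. None of the 20 G2/M genes was called by limma, and 2 had an unadjusted p under 0.05. Their median log2 fold change was 0.24, against 0.02 over all genes tested, and 17 of the 20 had a positive one. The mean over the 23 measured G2/M genes was 4.86 to 5.35 at day 21. That is above every day 7 sham array except sham replicate 1, the array with high fibroblast markers, which averaged 5.16. Without sham day 7 replicate 2 or BDL day 21 replicate 4, 3 genes were called. Without sham day 7 replicate 3 only Ccnd1 and Mcm10 were called, and without sham day 7 replicate 1 Kif20a, a kinesin of the central spindle, was called higher (log2 fold change 0.54, adjusted p = 0.0178 in limma) and E2f8 was not called.

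**Figure D3:**
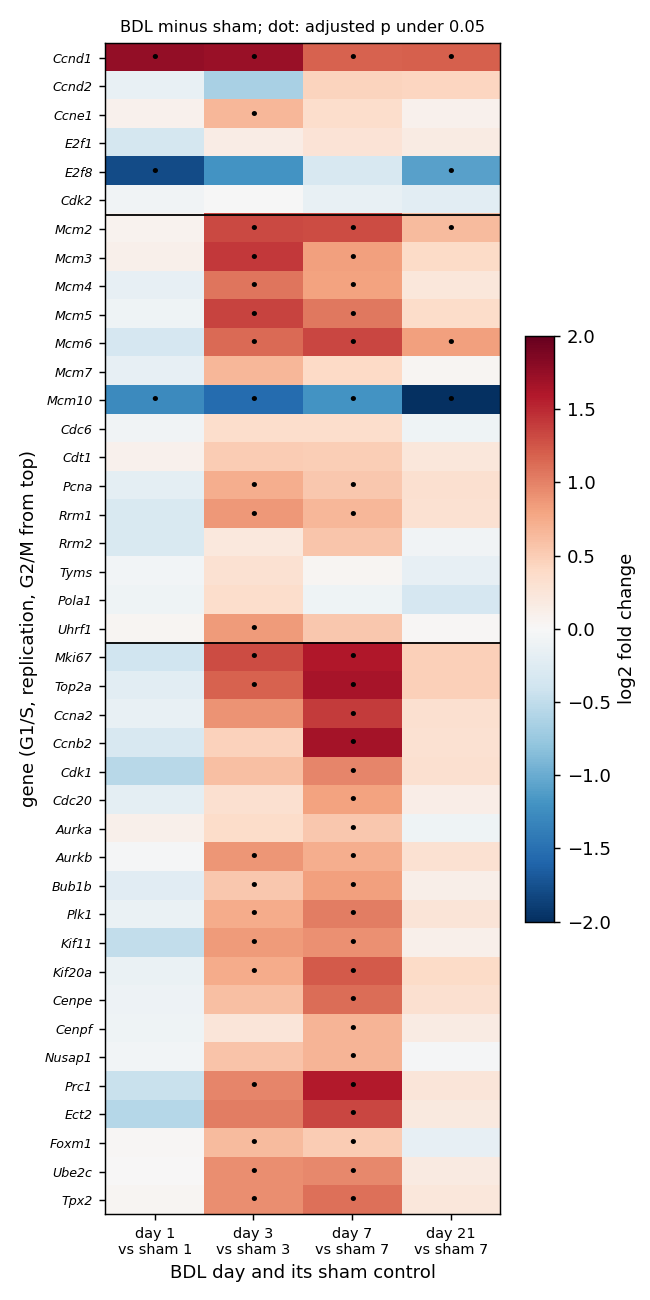
Log2 fold change (colour) of each of the 41 tested genes (rows, in the order G1/S, replication, G2/M) in the 4 comparisons of ligated with sham livers (columns); a dot marks an adjusted p under 0.05 in limma. All 20 tested G2/M genes carry a dot at day 7 and none does at day 21, while Ccnd1 and Mcm10 carry one in every column.

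Markers of other liver cell types moved in the same livers. Over all tested genes, 8.52%, 6.47%, 14.2% and 17.3% were called higher against sham at days 1, 3, 7 and 21. The shares called lower were 4.80%, 3.69%, 4.97% and 7.90%. Cholangiocyte markers were called higher for 2 of 7 at day 1, 6 of 7 at day 3, 7 of 7 at day 7 and 7 of 7 at day 21, and their mean level was 5.26 to 5.83 over the shams and 5.75 to 6.15, 6.35 to 6.69, 6.45 to 6.76 and 6.82 to 7.22 in ligated livers of days 1, 3, 7 and 21. Stellate cell and fibroblast markers were higher for 0, 3, 7 and 7 of 8, with means of 6.11 to 8.28 over the shams and 5.87 to 6.84, 7.00 to 7.93, 8.09 to 8.54 and 8.38 to 9.04 after ligation. Kupffer cell and macrophage markers were higher for 4, 4, 8 and 8 of 8 (1 was lower at day 1), with means of 6.86 to 7.50 over the shams and 7.13 to 8.06, 8.00 to 8.70, 8.54 to 9.07 and 8.59 to 9.27. Neutrophil markers were higher for 4, 2, 4 and 4 of 6 tested. From day 7 to day 21, when G2/M genes fell, limma called 0 of 7 cholangiocyte, 0 of 8 stellate and 0 of 8 macrophage markers (4, 2 and 2 at an unadjusted p under 0.05). Their median log2 fold changes were 0.36, 0.48 and 0.16. In that comparison only 0.401% of all tested genes rose and 0.463% fell, so 0 calls in a short list does not show that its markers stayed level. Of the 3 tested B and plasma cell markers, Jchain, named after its value was seen, was higher at day 21 than at day 7 (1.71, adjusted p = 1.53e-06 in limma). Against sham, 0 of these 3 markers were called at days 1 and 3, 1 was lower at day 7, and 1 was higher and 1 lower at day 21. Of 4 tested T and NK cell markers, 0 were called against sham at days 1 and 3, and 1 was lower at each of days 7 and 21. At day 1, 5 of 7 sinusoidal endothelial markers were lower, with means of 7.10 to 7.61 in ligated against 7.61 to 8.44 in sham livers. Sham replicates 1 and 3, which stood apart, averaged 7.61 and 7.90 there, and sham replicate 2 averaged 8.44. Against sham, 1 of the 7 was lower at day 3, 1 higher at day 7, and 1 higher and 2 lower at day 21. Hepatocyte markers were called lower for 2, 2, 2 and 1 of 7 at days 1, 3, 7 and 21, and 1 of 7 was called higher at day 3. Their log2 fold changes were positive for 4, 4, 3 and 5 of 7. RMA values have no true 0, so no marker can be said to be absent. The part of these cell types in the cell cycle results was not tested.

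Cyclin D1 (Ccnd1), the partner of CDK4 and CDK6 that couples growth signals to the cycle, was higher after ligation at every day. In sham livers it read 7.47, 7.74 and 6.66 at day 1, 6.71 and 7.67 at day 3, and 8.03, 7.94, 7.58 and 7.53 at day 7. Ligated livers read 9.23, 8.47, 8.57, 9.62 and 9.33 at day 1, 8.48, 9.50, 9.18, 9.42 and 8.03 at day 3, 8.99, 8.94, 8.91, 8.87 and 9.03 at day 7, and 8.52, 9.12, 8.65, 9.42 and 9.09 at day 21. No ligated array overlapped the shams it was compared with, and the ligated arrays of day 7 lay closest together. The log2 fold changes were 1.75 ± 0.30 (SE; adjusted p = 0.00019 in limma) at day 1, 1.73 ± 0.34 (adjusted p = 0.00123) at day 3, 1.18 ± 0.28 (adjusted p = 0.00246) at day 7 and 1.19 ± 0.28 (adjusted p = 0.00165) at day 21. Without the 4 day 1 arrays that stood apart, which leaves a lone day 1 sham, the day 1 value was 1.65. Without sham day 3 replicate 1, which also leaves a lone sham, the day 3 value was 1.25 and was not called.

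Cyclin E1 (Ccne1), which drives CDK2 at the entry into S phase, was called only at day 3. Its shams read 6.25, 5.58 and 5.85 at day 1, 5.81 and 5.60 at day 3, and 6.16, 5.60, 5.27 and 5.54 at day 7. In ligated livers it read 5.74, 6.18, 5.99, 6.05 and 5.96 at day 1, 6.20, 6.50, 6.41, 6.59 and 6.14 at day 3, 5.95, 6.23, 5.89, 5.92 and 6.00 at day 7, and 6.02, 5.46, 5.69, 5.69 and 5.80 at day 21. Only at day 3, with 2 sham arrays, did the ligated arrays all lie above their shams, as they did for 2223 of all 14699 tested genes. The log2 fold change there was 0.66 ± 0.19 (adjusted p = 0.02 in limma). At day 7 it was 0.36 (95% interval 0.05 to 0.66, adjusted p = 0.0994), or 0.53 (adjusted p = 0.00905) without sham replicate 1.

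E2f8, an atypical E2F that represses E2F targets and takes part in making hepatocytes polyploid, went the other way. Shams read 6.25, 6.97 and 7.25 at day 1, 5.51 and 7.85 at day 3, and 6.79, 6.36, 6.07 and 5.14 at day 7. After ligation it read 5.06, 4.61, 5.09, 4.90 and 5.49 at day 1, 4.97, 6.55, 5.18, 5.64 and 5.12 at day 3, 6.00, 5.25, 6.28, 5.10 and 6.20 at day 7, and 5.27, 4.92, 4.53, 5.27 and 5.01 at day 21. The day 1 groups did not overlap, and at day 3 a sham array lay inside the ligated range and the other above it. Its log2 fold change was -1.79 ± 0.41 (adjusted p = 0.00321 in limma) at day 1 and -1.09 ± 0.37 (adjusted p = 0.0311) at day 21. At day 3 it was -1.19 (95% interval -2.15 to -0.24, adjusted p = 0.107) and at day 7 -0.32 (interval -1.08 to 0.45, adjusted p = 0.621). Without the 4 day 1 arrays that stood apart, which leaves a lone day 1 sham, the day 1 value was -1.82 and was not called. The day 3 value was -2.36 without sham replicate 1 and -0.022 without sham replicate 2, each time with a lone sham left. The day 21 call was lost without any of sham replicates 1, 2 and 3 or BDL replicates 2, 3 and 5 (adjusted p of 0.0502 to 0.128).

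The other G1/S genes, the cyclin Ccnd2, the transcription factor E2f1 and the kinase Cdk2, were not called against sham at any day. Their log2 fold changes lay between -0.65 (Ccnd2 at day 3) and 0.44 (Ccnd2 at day 7).

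Among the replication genes, 5 of the 6 subunits of the MCM2 to MCM7 ring, the helicase that opens DNA at origins, rose at days 3 and 7. Mcm2, Mcm3, Mcm4, Mcm5 and Mcm6 were called at both days, with log2 fold changes of 1.07 to 1.42 at day 3 and 0.80 to 1.33 at day 7. Mcm7 measured 0.67 at day 3 (adjusted p = 0.0613) and 0.40 at day 7 (adjusted p = 0.128).

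Mcm3 read 5.60, 5.37 and 5.65 in shams at day 1, 5.48 and 4.97 at day 3, and 5.82, 6.08, 5.83 and 5.95 at day 7. Ligated livers had 5.84, 5.47, 5.58, 5.54 and 5.81 at day 1, 6.11, 7.34, 6.76, 6.79 and 6.22 at day 3, 6.85, 6.30, 6.97, 6.33 and 7.22 at day 7, and 6.03, 6.28, 6.32, 6.57 and 6.30 at day 21. The groups were apart at days 3 and 7 and overlapped at days 1 and 21. Its log2 fold change was 1.42 ± 0.24 (adjusted p = 0.00026 in limma) at day 3 and 0.81 ± 0.20 (adjusted p = 0.00309) at day 7, and at day 21 it was 0.38 (95% interval -0.02 to 0.78).

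Mcm5, whose promoter opens the set shown above, read 5.29, 4.99 and 5.48 in shams at day 1, 4.72 and 5.41 at day 3, and 5.63, 5.47, 5.10 and 5.59 at day 7. With ligation the values were 5.48, 4.78, 4.91, 5.25 and 5.41 at day 1, 6.01, 7.64, 6.15, 6.86 and 5.40 at day 3, 6.72, 5.92, 6.64, 6.24 and 6.99 at day 7, and 5.76, 5.74, 5.73, 6.13 and 5.72 at day 21. BDL replicate 5 of day 3 lay just inside the sham range, and replicate 2 lay highest. The log2 fold change was 1.34 ± 0.35 (adjusted p = 0.0127 in limma) at day 3, 1.06 ± 0.28 (adjusted p = 0.00787) at day 7 and 0.37 ± 0.28 (adjusted p = 0.377) at day 21.

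Mcm6, like Mcm2, was still called above the day 7 shams at day 21. Sham livers read 5.66, 5.71 and 6.18 at day 1, 5.68 and 5.59 at day 3, and 6.14, 5.58, 5.49 and 5.67 at day 7. Ligated ones read 5.88, 5.15, 5.11, 5.55 and 5.86 at day 1, 6.23, 8.06, 6.46, 6.92 and 6.19 at day 3, 6.93, 7.05, 7.05, 6.78 and 7.43 at day 7, and 6.37, 6.49, 6.19, 7.10 and 6.51 at day 21. From day 3 on every ligated array lay above its shams. The log2 fold changes were 1.14 ± 0.33 (adjusted p = 0.0246 in limma), 1.33 ± 0.26 (adjusted p = 0.000501) and 0.81 ± 0.26 (adjusted p = 0.0232) at days 3, 7 and 21. At day 21 the call was lost without sham replicate 2, 3 or 4 or BDL replicate 4 (adjusted p of 0.0531 to 0.0796). Mcm2 measured 1.32, 1.31 and 0.63 on the same scale.

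Mcm10, which links the opened helicase to DNA polymerase alpha, was lower after ligation at every day. Sham livers read 6.87, 8.01 and 7.26 at day 1, 7.35 and 8.26 at day 3, and 8.32, 7.20, 8.55 and 7.47 at day 7. Ligated livers read 6.28, 6.24, 5.97, 5.84 and 6.19 at day 1, 6.39, 6.71, 6.22, 5.99 and 6.03 at day 3, 6.63, 6.74, 6.85, 6.56 and 6.69 at day 7, and 6.27, 5.83, 5.63, 5.88 and 5.85 at day 21. In no comparison did a ligated array reach its shams. The log2 fold changes were -1.27 ± 0.25 (adjusted p = 0.00094 in limma), -1.53 ± 0.29 (adjusted p = 0.000753), -1.19 ± 0.23 (adjusted p = 0.000422) and -1.99 ± 0.23 (adjusted p = 1.96e-07) at days 1, 3, 7 and 21. At day 3 the value without sham replicate 2 was -1.08 (adjusted p = 0.0872). Mcm10 and E2f8 are among the 44 of 45 measured genes that rest on 1 row of the array each.

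**Figure D4:**
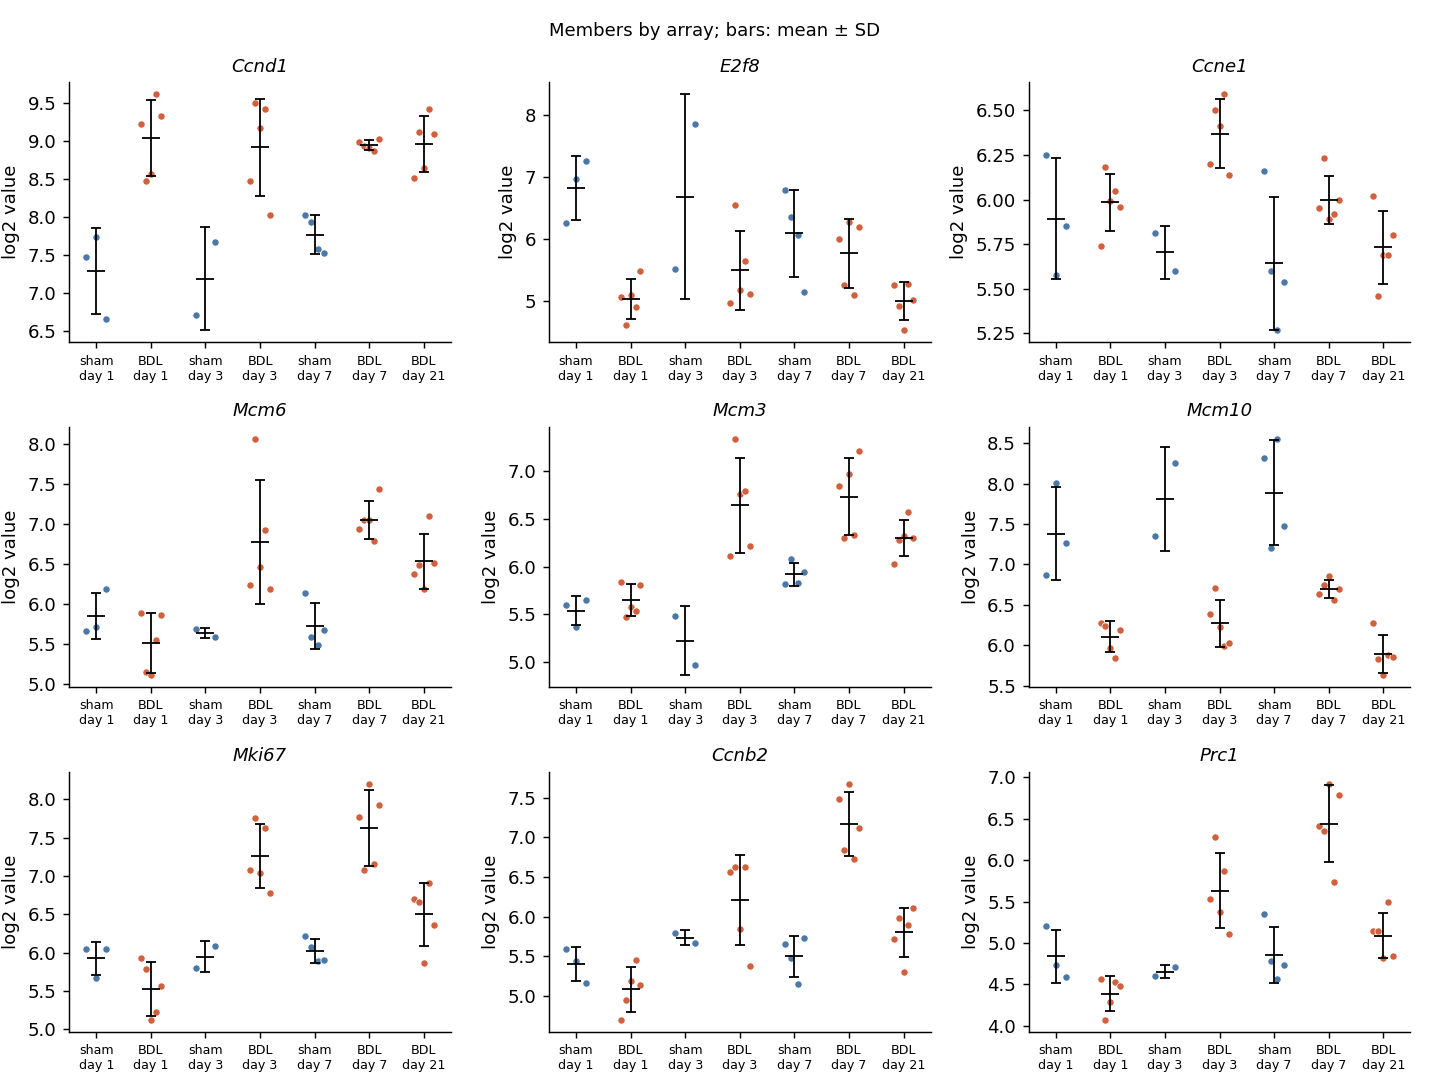
Log2 value (y axis) of 9 cell cycle genes in every array by operation and day (x axis); bars give mean ± SD. Ccnd1 of ligated livers lies above and Mcm10 below its shams at each day, while Mki67, Ccnb2 and Prc1 are highest at day 7.

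The sliding clamp Pcna read 7.82, 7.64 and 8.08 in shams at day 1, 7.94 and 7.61 at day 3, and 8.04, 7.75, 8.11 and 7.76 at day 7. After ligation the values were 7.84, 7.26, 7.64, 7.80 and 7.69 at day 1, 8.13, 8.95, 8.63, 8.65 and 8.16 at day 3, 8.53, 8.53, 8.35, 8.11 and 8.75 at day 7, and 8.32, 8.17, 8.06, 8.50 and 8.14 at day 21. The groups were apart at day 3 and met at day 7. Its log2 fold change was 0.73 ± 0.20 (adjusted p = 0.0155 in limma) at day 3, 0.54 ± 0.16 (adjusted p = 0.015) at day 7 and 0.32 (95% interval -0.0022 to 0.65) at day 21. At day 7 the call was lost without sham replicate 2 or 4 or BDL replicate 5, with adjusted p-values of 0.0574, 0.0558 and 0.0532.

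Ribonucleotide reductase makes the deoxynucleotides for replication from a large subunit, Rrm1, and a small one, Rrm2. Rrm1 rose at days 3 and 7, by 0.87 ± 0.25 (adjusted p = 0.0252 in limma) and 0.67 ± 0.20 (adjusted p = 0.0183). Rrm2 was not called at any day. Its shams read 6.21, 5.30 and 5.84 at day 1, 6.33 and 5.61 at day 3, and 5.91, 5.81, 6.33 and 5.29 at day 7. Ligated livers read 5.29, 5.38, 5.50, 5.74 and 5.45 at day 1, 5.92, 6.86, 5.97, 6.14 and 5.99 at day 3, 6.54, 6.21, 6.53, 5.97 and 6.73 at day 7, and 6.07, 5.57, 5.62, 6.06 and 5.47 at day 21. The sham arrays of each day spread widely, and the groups overlapped throughout. Against sham, Rrm2 measured 0.20 (95% interval -0.35 to 0.75) at day 3 and 0.56 (interval 0.12 to 1.00, adjusted p = 0.0682) at day 7, and the day 7 interval includes the rise of Rrm1. At day 7 Rrm2 was called with array weights (0.59) and with the shams of days 3 and 7 pooled (0.52).

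Uhrf1, which guides maintenance methylation behind the fork, rose at day 3 (0.85 ± 0.25, adjusted p = 0.0255 in limma) and measured 0.55 at day 7 (adjusted p = 0.0543). The origin licensing factors Cdc6 and Cdt1, thymidylate synthase (Tyms) and the catalytic subunit of polymerase alpha (Pola1) were not called against sham at any day, with values of 0.31 to 0.51 at day 3. Gins1, a helicase cofactor below the filter, measured 0.51 at day 3 (adjusted p = 0.111 without a filter) and 0.18 at day 7.

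The tested G2/M genes had a median log2 fold change of 0.74 at day 3 and 1.00 at day 7. Mki67, which encodes the Ki-67 protein that coats mitotic chromosomes and marks cycling cells, read 6.05, 5.67 and 6.05 in shams at day 1, 5.80 and 6.09 at day 3, and 6.22, 6.07, 5.89 and 5.90 at day 7. In ligated livers it was 5.93, 5.78, 5.12, 5.23 and 5.56 at day 1, 7.08, 7.76, 7.04, 7.62 and 6.78 at day 3, 7.77, 7.08, 8.20, 7.15 and 7.93 at day 7, and 6.70, 6.66, 5.86, 6.91 and 6.36 at day 21. The groups were apart at days 3 and 7, and at day 21 BDL replicate 3 lay below the shams and the other 4 above them. The log2 fold change was 1.31 ± 0.29 (adjusted p = 0.00285 in limma) at day 3 and 1.61 ± 0.23 (adjusted p = 7.73e-06) at day 7. At day 21 it was 0.48 (95% interval 0.01 to 0.95, adjusted p = 0.137).

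Topoisomerase II alpha (Top2a), which untangles sister chromatids, read 4.68, 4.26 and 4.20 in shams at day 1, 4.20 and 4.23 at day 3, and 4.82, 4.43, 4.27 and 3.99 at day 7. Ligated livers had 3.97, 4.17, 4.27, 4.20 and 4.23 at day 1, 5.24, 6.33, 5.15, 5.56 and 4.70 at day 3, 6.29, 5.69, 6.33, 5.22 and 6.58 at day 7, and 4.86, 5.10, 4.14, 5.46 and 4.72 at day 21. Every sham array lay under the filter level of 5, so the size of the rise depends on the background. It was 1.18 ± 0.33 (adjusted p = 0.0204 in limma) at day 3 and 1.64 ± 0.27 (adjusted p = 4.57e-05) at day 7.

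Cyclin B2 (Ccnb2), a partner of CDK1 in mitosis, was called at day 7 and not at day 3. Shams read 5.59, 5.44 and 5.17 at day 1, 5.80 and 5.67 at day 3, and 5.65, 5.48, 5.15 and 5.73 at day 7. Ligated livers read 4.70, 4.95, 5.19, 5.45 and 5.14 at day 1, 6.56, 6.62, 5.84, 6.63 and 5.38 at day 3, 7.48, 6.84, 7.67, 6.72 and 7.12 at day 7, and 5.72, 5.98, 5.31, 5.90 and 6.11 at day 21. At day 3 replicate 5 lay below both shams, and at day 7 all 5 arrays lay above every array of day 3. The log2 fold change was 0.47 (95% interval -0.11 to 1.05, adjusted p = 0.351 in limma) at day 3 and 1.66 ± 0.23 (adjusted p = 4.19e-06) at day 7. The difference between those 2 effects was 1.19 ± 0.36 with an adjusted p of 0.284.

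Cdk1, the kinase that drives entry into mitosis, read 6.32, 5.60 and 5.58 in shams at day 1, 5.27 and 5.29 at day 3, and 5.95, 5.13, 5.30 and 4.48 at day 7. Ligated livers had 5.33, 5.40, 5.72, 4.86 and 5.12 at day 1, 5.58, 6.80, 5.73, 5.86 and 5.42 at day 3, 6.22, 6.36, 6.82, 5.72 and 5.84 at day 7, and 5.36, 5.63, 5.44, 5.76 and 5.47 at day 21. Its sham values spread more than those of Mki67. The log2 fold change was 0.60 ± 0.32 (adjusted p = 0.278 in limma) at day 3 and 0.98 ± 0.26 (adjusted p = 0.007) at day 7, where it lost the call without sham replicate 4, the lowest array (0.73, adjusted p = 0.0557).

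Prc1, which bundles the microtubules of the central spindle, read 5.20, 4.73 and 4.59 in shams at day 1, 4.60 and 4.71 at day 3, and 5.35, 4.78, 4.56 and 4.73 at day 7. Ligated livers read 4.57, 4.07, 4.29, 4.53 and 4.48 at day 1, 5.53, 6.28, 5.37, 5.87 and 5.11 at day 3, 6.41, 6.35, 6.92, 5.74 and 6.79 at day 7, and 5.15, 5.15, 4.82, 5.49 and 4.84 at day 21. At day 1 all ligated arrays lay below the shams, without a call (-0.45 ± 0.24, adjusted p = 0.239 in limma). The gene then rose by 0.98 ± 0.27 (adjusted p = 0.0186) at day 3 and 1.59 ± 0.22 (adjusted p = 4.64e-06) at day 7.

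Foxm1, the transcription factor that drives G2/M genes, stayed near the filter level. Its shams read 4.66, 4.65 and 4.57 at day 1, 4.35 and 4.28 at day 3, and 5.05, 4.16, 4.50 and 4.41 at day 7. Ligated livers had 4.63, 4.90, 4.83, 4.37 and 4.49 at day 1, 5.01, 5.08, 4.68, 5.09 and 4.85 at day 3, 5.15, 5.17, 5.08, 4.78 and 5.02 at day 7, and 4.32, 4.37, 4.38, 4.60 and 4.14 at day 21. It measured 0.63 ± 0.17 (adjusted p = 0.0175 in limma) at day 3 and 0.51 ± 0.14 (adjusted p = 0.00919) at day 7, and sham day 7 replicate 1 lay among the ligated arrays. Without sham day 7 replicate 2 the day 7 value was 0.38 (adjusted p = 0.0658).

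Of the other G2/M genes, the spindle and cytokinesis genes Kif20a, Ect2 and Tpx2 changed by 1.22, 1.33 and 1.11 at day 7, and cyclin A2 (Ccna2) and the centromere motor Cenpe by 1.40 and 1.11. The kinases Plk1, Aurka and Aurkb measured 1.03, 0.54 and 0.73, and the checkpoint kinase Bub1b 0.82. The ubiquitin pathway genes Cdc20 and Ube2c measured 0.80 and 0.96. Kif11, Cenpf and Nusap1 measured 0.92, 0.68 and 0.68, and each of these was called. Of the 20 genes, 9 were called at day 7 and not at day 3: Ccna2, Ccnb2, Cdk1, Cdc20, Aurka, Cenpe, Cenpf, Nusap1 and Ect2. That the effects of days 3 and 7 differ was not shown for any of them: limma called 0 of 41 genes for the difference (3 at an unadjusted p under 0.05), where 0.0544% of all tested genes were called. Below the filter, Birc5, a chromosomal passenger, measured 0.94 at day 3 and 0.64 at day 7 (adjusted p = 0.0149 and 0.0262 without a filter), and Bub1 0.74 at day 7 (adjusted p = 0.00114).

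**Figure D5:**
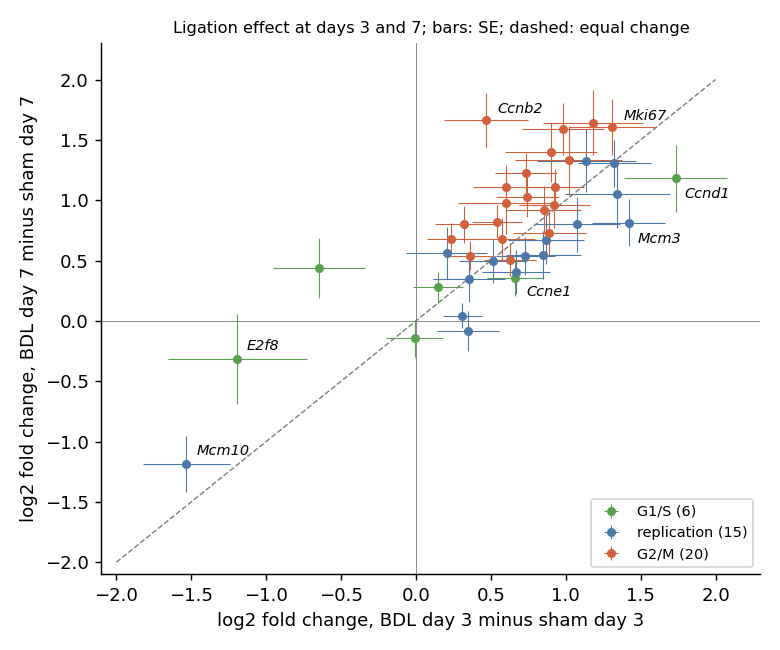
Log2 fold change of ligated against sham livers at day 3 (x axis) and day 7 (y axis) for the 41 tested genes, with SE bars; the dashed line marks equal change. Most G2/M genes lie above the line, such as Ccnb2 (0.47 and 1.66), and Mcm3 lies below it (1.42 and 0.81).

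Among ligated livers alone, 27 of the 41 genes rose from day 1 to day 3 and none fell, where 12.0% of all tested genes rose and 6.44% fell. They were 1 of 6 G1/S genes (Cdk2), 11 of 15 replication genes and 15 of 20 G2/M genes. Ect2, a cytokinesis gene, rose most, by 1.93 ± 0.27 (adjusted p = 2.59e-05 in limma), followed by Mki67 (1.73), Rrm1 (1.50) and Mcm6 (1.26). Rrm2, not called against sham, rose by 0.70 ± 0.20 (adjusted p = 0.0167). Without the 4 day 1 arrays that stood apart 19 genes were called, all higher. In the same comparison 7 of 7 sinusoidal endothelial, 7 of 8 stellate cell, 5 of 8 macrophage and 4 of 7 cholangiocyte markers rose, with medians of 1.20, 1.12, 0.99 and 0.62, and 2 of 6 neutrophil markers fell. Their part in the rise of the cell cycle genes was not tested.

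From day 3 to day 7 only Ccnb2 (0.96 ± 0.21, adjusted p = 0.00648 in limma), Kif20a (0.72 ± 0.16, adjusted p = 0.0052) and Prc1 (0.81 ± 0.21, adjusted p = 0.017) rose further, where 4.60% of all tested genes rose and 1.10% fell. The median change was 0.38 over the 20 G2/M genes and 0.06 over the 15 replication genes, against 0.03 over all genes. BDL replicate 2 of day 3 was the highest array of its group for the means of all 3 groups of genes; without it 9 genes were called, and with array weights 12, among them a fall of Ccne1 (-0.44).

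From day 7 to day 21 the genes called were G2/M genes. Of the 41, 18 fell and none rose, and these were 18 of the 20 G2/M genes, with Cdk1 and Aurkb not called, where 0.463% of all tested genes fell and 0.401% rose. The 6 genes that passed the filter only through ligated livers of days 3 or 7 are among the 20, so a fall was favoured for them. With the filter on the mean 12 of 14 G2/M genes fell, and without a filter 17 of 23. Ccnb2 and Prc1 fell by 1.36 ± 0.21 (adjusted p = 0.000666 in limma) and 1.35 ± 0.21 (adjusted p = 0.00057) on the log2 scale, Top2a by 1.17 and Mki67 by 1.13. None of the 15 replication genes was called, but 11 had an unadjusted p under 0.05, with a median of -0.44. Leaving out BDL day 7 replicate 3, or BDL day 21 replicate 3 or 5, left 9 calls, and leaving out BDL day 7 replicate 1 or 5 left 11.

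The effect of ligation was larger at day 7 than at day 1 for 18 of the 41 genes, and smaller for none, where 3.48% of all tested genes had a larger and 0.857% a smaller effect. These were 16 G2/M genes and the helicase subunits Mcm2 (1.24 ± 0.29, adjusted p = 0.0127 in limma) and Mcm6 (1.67 ± 0.39, adjusted p = 0.0127). Here too some of the 16, such as Top2a and Bub1b, passed the filter only through ligated livers; with the filter on the mean the count was 12 of 14 G2/M genes, and without a filter 15 of 23. Among the 41, Prc1 and Mki67 had the largest differences, 2.04 ± 0.32 (adjusted p = 0.00094) and 2.01 ± 0.34 (adjusted p = 0.00115). Without the 4 day 1 arrays that stood apart, which leaves a lone day 1 sham, most of these calls were lost. Ccnb2 (2.01), Prc1 (1.79) and Bub1b (0.99) kept theirs. For day 3 against day 1 limma called 0 of 41, 29 at an unadjusted p under 0.05, where 0.0748% of all tested genes were called; Mki67 measured 1.71 ± 0.38 with an adjusted p of 0.0725.

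Between sham livers none of the 41 tested genes of the list was called. For day 1 against day 7 this was 0 of 41 in limma (6 at an unadjusted p under 0.05), where 4.11% of all tested genes were called, and for day 3 against day 7 also 0 of 41 (2 at an unadjusted p under 0.05), where none of the 14699 genes was (0.00%). Without sham day 1 replicate 2, Ccnd2 (-1.02), Cdk2 (-0.65), Mcm10 (-0.82) and E2f1 (0.49) were called between days 1 and 7.

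Other genes of the cycle were read from 4 lists of 163 genes, 122 of them tested: G1 regulators and inhibitors, further replication factors, S phase repair and checkpoint genes, and further mitotic genes. Of these 122, 5 rose and 4 fell at day 1, where 8.52% of all tested genes rose and 4.80% fell. At day 3, 27 rose and 1 fell (6.47% and 3.69% of all genes). At day 7, 48 rose and none fell (14.2% and 4.97%), and at day 21, 12 rose and 3 fell (17.3% and 7.90%). The counts of risen genes at days 1 and 21 thus lay below the background. Between shams of days 1 and 7, 2 were lower at day 1, the cyclin gene Ccng1 (-0.87, adjusted p = 0.0357 in limma) and the primase subunit Prim2 (-0.53, adjusted p = 0.0325).

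Among 28 G1 regulators and inhibitors, 5 rose at day 1, 4 at day 3, 7 at day 7 and 7 at day 21, where 8.52%, 6.47%, 14.2% and 17.3% of all genes rose, and none fell against sham. Cdkn1a, which encodes the CDK inhibitor p21, rose most: its log2 fold changes were 3.44 ± 0.32, 2.90 ± 0.37, 2.85 ± 0.30 and 2.93 ± 0.30 at days 1, 3, 7 and 21, with adjusted p-values in limma of 2.36e-08, 5.15e-06, 7.64e-08 and 1.9e-08. Its ligated arrays read 8.28 to 10.07 and its shams 5.48 to 6.85, so this inhibitor was high in the same livers in which Ccnd1 was high. Btg2, an antiproliferative gene, rose at each day (1.50, 1.37, 1.12 and 0.78). The retinoblastoma relative Rbl1 rose at days 3 and 7 (0.87 and 0.77), Cdk6 at days 7 and 21 (0.62 and 0.61), and the phosphatase Cdc25a at days 1 and 21 (0.84 and 0.64). Cks1b, a CDK subunit, rose at day 1 (0.85).

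Of 34 tested further replication factors, none rose and 3 fell at day 1, while 5 rose at day 3, 9 at day 7 and 2 at day 21. Over all genes 4.80% fell at day 1, and 6.47%, 14.2% and 17.3% rose at days 3, 7 and 21, so the count of day 21 is below the background. At day 1 thymidine kinase 1 (Tk1) fell by 1.80 ± 0.22 (adjusted p = 1.68e-06 in limma), Pola2 by 0.57 and Gins4 by 0.45. At day 3 DNA ligase 1 (Lig1, 1.34), polymerase epsilon (Pole, 1.10) and the chromatin assembly genes Chaf1b (1.04) and Asf1b (0.97) rose, and Lig1 (0.88), Pole (0.81) and the maintenance methyltransferase Dnmt1 (0.77) rose at day 7. At day 21 Dnmt1 (0.54) and Gins2 (0.41) were higher and Rpa3 lower (-0.68).

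Of 14 tested S phase repair and checkpoint genes, none was called at day 1, 4 rose at day 3 (6.47% of all genes) and 6 at day 7 (14.2%), and none was called at day 21 (17.3% higher and 7.90% lower). The RecQ helicase gene Blm led at day 3 (1.01 ± 0.17, adjusted p = 0.000174 in limma), with Brca2 (0.71), Brca1 (0.68) and Fancd2 (0.60). At day 7 the exonuclease gene Exo1 (0.66), Blm (0.53), Clspn (0.52) and Bard1 (0.47) were among those higher.

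Of 46 tested further mitotic genes, 1 fell at day 1 (4.80% of all genes), 14 rose and 1 fell at day 3 (6.47% and 3.69%), 26 rose at day 7 (14.2%), and 3 rose and 2 fell at day 21 (17.3% and 7.90%). The cytokinesis genes Anln (1.32 and 1.27), Arhgap11a (1.00 and 1.16) and Kif23 (0.77 and 1.18) rose at days 3 and 7, as did the spindle gene Ckap2 (1.12 and 1.34), while Spc25, a kinetochore gene, fell at days 1 and 21 (-0.63 and -0.72). Arhgap11a and Anln were still higher at day 21 (0.75 and 0.62). From day 7 to day 21, 13 of the 46 fell and none rose (0.463% and 0.401% of all genes).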

How the data were processed

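Liver RNA was measured on 29 arrays, 1 per mouse as the labels read, so the error is that between animals. The deposited values are log2 intensities made with RMA in oligo 1.52.0, per the submitters' processing notes: background subtraction, quantile normalization between arrays and summary of the probes of a row. RMA can understate large differences. Neither the set of arrays normalized together nor the authors' genome build is stated in the sources at hand. Genes were named from the annotation of the Mouse Gene 2.0 ST array, which fits the row identifiers but is not the array model the labels name. Of 41345 rows, 23521 had 1 gene symbol, of which 23328 were found by gene ID in a RefSeq table (GRCm38.p6); 1814 had several and 16010 are unnamed here. The row of highest mean was kept per gene (44 of the 45 measured cell cycle genes have 1 row).

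Genes over 5 (log2) on 3 arrays or more (14699) were tested with limma 3.58.1 under R 4.3.3 (lmFit, eBayes; 1 mean per group over all arrays), two-sided, with Benjamini-Hochberg adjustment over all tested genes and a threshold of 0.05. Log2 fold changes are the first group minus the second, with SE, and intervals are at the 95% level. Groups follow the labelled operation and time. Replicate numbers follow accession order and only name an array. The procedure was tested on simulated data. As alternatives the filter was dropped or raised to 6, rows of a gene were averaged, and fits used cyclic loess, array weights, trend and robust priors, the compared groups alone, pooled shams, the 4 day 1 arrays as a term or left out, each array left out, and a filter on the mean over all arrays, the last chosen after the data were seen.

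Genes and lists were chosen with earlier results of these data known. Values in every array are given for up to 4 genes per group with the largest called change against sham and for Ccnd1, Ccne1, E2f8, Mcm5, Pcna, Rrm2, Mki67, Top2a, Cdk1 and Foxm1. Of each further list up to 4 genes with the largest called change per comparison were eligible, and Cdkn1a always. Motifs were searched as exact letters on both strands in RefSeq promoters with Python 3.11.15.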

Additional observations from a re-analysis of the deposited data

Results flagged for a closer look

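In 90 groups of 4 or 5 arrays (the genes described array by array and the group means), the highest or lowest array was set against its neighbours by Dixon's ratio. Chance passes this ratio for about 1 in 20 groups. An array was flagged in 4 groups, 3 different arrays in all, which is near the share that chance gives. Sham day 7 replicate 1 had the highest mean over the 23 measured G2/M genes of its group, 5.16 against at most 4.83 in the other arrays of that group, and this is the array with fibroblast markers at 8.28. BDL day 3 replicate 2 had the highest Rrm2 value of its group, 6.86. BDL day 21 replicate 4 had the highest Mcm5 value, 6.13, and the highest mean over replication genes, 6.35, of its group.

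The effect of ligation differed between days 7 and 1, by the test of the difference in limma, for 6 of the genes described array by array. The differences, day 7 minus day 1, were 2.04 for Prc1 (adjusted p = 0.00094), 2.01 for Mki67 (adjusted p = 0.00115), 1.98 for Ccnb2 (adjusted p = 0.00115), 1.86 for Top2a (adjusted p = 0.00667), 1.67 for Mcm6 (adjusted p = 0.0127) and 1.53 for Cdk1 (adjusted p = 0.0199). All 6 had a negative log2 fold change at day 1 and a positive one at day 7. Without the 4 day 1 arrays that stood apart, which leaves a lone day 1 sham, Ccnb2 and Prc1 kept the call.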

How the results depend on the processing

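Counts of called genes kept within 1.5 times the main count except as follows, and the cause was not tested. With only the groups compared, the day 3 comparison called 9 of 41. Pooling the shams of days 3 and 7 gave 8 at day 21. Array weights gave 12 for BDL day 7 against day 3 and 3 for sham day 1 against day 7. The stricter filter, which tests fewer genes, gave 11 for BDL day 21 against day 7. The 4 day 1 arrays as a term gave 1 for the effect at day 3 minus day 1. Leaving them out, which leaves a lone day 1 sham, gave far fewer calls for day 7 minus day 1. Leaving out 1 array at a time gave counts of 3 to 4 at day 1, 8 to 26 at day 3, 26 to 31 at day 7, 2 to 5 at day 21, 20 to 30 for BDL day 3 against day 1, 2 to 9 for day 7 against day 3, 9 to 18 for day 21 against day 7, 0 to 4 for sham day 1 against day 7 and 0 to 0 for sham day 3 against day 7. For differences of effects the ranges were 0 to 2 (day 3 minus day 1), 0 to 1 (day 7 minus day 3) and 15 to 20 (day 7 minus day 1). Of 1034 alternative values for the 15 genes described array by array, 965 kept direction and call, 14 gained and 38 lost a call, and 17 changed sign, none of them called. At day 1, array weights gave -0.0662 for Ccne1 and -0.0846 for Foxm1, and leaving out the 4 arrays gave -0.153 for Foxm1, 0.39 for Mcm5, 0.0580 for Mcm6, 0.13 for Pcna and 0.20 for Rrm2. Without 1 array at a time the day 1 values ran from -0.0676 to 0.27 for Ccne1, -0.0462 to 0.0868 for Foxm1 and -0.22 to 0.0239 for Mcm5. The day 3 value of Rrm2 ran from -0.16 to 0.56. At day 21 the ranges were -0.0353 to 0.26 for Ccne1, -0.29 to 0.0033 for Foxm1 and -0.26 to 0.0873 for Rrm2. No paired analysis was possible because replicate numbers follow accession order and pair no animals.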
